A study of Mus musculus with 18 samples.

Results

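Zinc finger genes named Zfp followed by digits alone, apart from Zfp609 and Zfp148, were described as hosts of circular RNA in mouse whole brain. The gene names were those written by CIRIquant, the tool that counted back-splice reads, and 233 of 14495 host genes on Illumina fitted this rule. These 233 hosts gave 1594 of 208914 circles. On Oxford Nanopore (ONT) they were 181 of 13506 hosts and 800 of 166212 circles. Another 21 Zfp names with letters after the digits and 58 circles that named a Zfp gene together with other genes were not members. Of the 1594 member circles, 1297 were labelled exonic, 258 intronic and 39 antisense in the deposited tables. The exonic share was 81.4% for Zfp circles and 81.4% for the other circles with a gene name.

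Circular RNAs form when a downstream 5′ splice site is joined to an upstream 3′ splice site, and the read across that back-splice junction is what was counted. The Zfp name is given to mouse genes that encode C2H2 zinc fingers, short folds in which a pair of cysteines and a pair of histidines hold a zinc ion and which mostly bind DNA. Many belong to the KRAB family, whose N-terminal domain recruits the corepressor TRIM28 and silences retroelements and imprinted loci. In KRAB genes the fingers are commonly encoded by one long last exon, while other Zfp genes spread them over several exons. The adenosine deaminases ADAR1 and ADAR2 convert adenosine to inosine in double-stranded RNA, including inverted repeats in introns, whose pairing can bring splice sites together.

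All mice were C57BL/6J males aged 3 to 4 months. The wild type (WT) was compared with Adar2KO, which carried Adar2-/- and Gria2R/R, and with Adar1-2KO, which carried Adar1E861A/E861A, Ifih-/-, Adar2-/- and Gria2R/R. Gria2R/R encodes an AMPA receptor subunit in its edited form, the E861A change removes the editing activity of ADAR1, and Ifih1 encodes the RNA sensor MDA5. The alleles of a genotype come together, so their effects cannot be told apart. Total RNA was treated with RNase R, which digests linear RNA, and n = 3 libraries per genotype, labelled biological replicates, were read on Illumina. ONT tables were used for n = 3 libraries of each mutant and n = 2 of WT (replicates 2 and 3), so 17 of 18 samples were analysed.

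Illumina libraries held 1516772 to 4308264 back-splice reads and ONT libraries 186594 to 673705. Adar1-2KO replicate 3 stood apart, with the most reads (4308264) in the fewest circles (21736, against 54244 to 76743 in the other 8). By its read names, 51.3% of its junction reads came from a flow cell that was the main one of none of the other 7 libraries with read names, while the 3 WT libraries and Adar1-2KO replicate 2 were read on flow cell 1. Adar2KO replicates 1 and 2 were mainly on flow cell 2 (90.1% and 95.8%) and replicate 3 mainly on flow cell 1 (87.4%). Among Zfp genes this library listed 82 hosts and 193 circles, and the other 8 listed 138 to 164 hosts and 464 to 653 circles. Circles of Adarb1, the gene of ADAR2, were counted 196, 94 and 84 times in WT, 317, 353 and 336 times in Adar2KO, and in Adar1-2KO 505, 215 and 759 times, so these counts do not check the deletion. Ifih1 had 2 reads in all, in Adar2KO replicate 2. Hosts that mark neurons summed to 16888 to 21417 CPM (back-splice counts-per-million, after TMM scaling) in every library. Those of the oligodendrocyte lineage summed to 426 to 613 CPM (6 of 7 genes gave circles) and those of astrocytes to 405 to 621 (5 of 6). Ependyma and choroid plexus were at 404 to 764 CPM (4 of 6), and endothelial cells and pericytes at 19.9 to 85.8 (5 of 5). Microglia were at 35.4 to 67.4 CPM (2 of 5). These ranges pool the genotypes. The oligodendrocyte sum was 513 to 613 CPM in Adar1-2KO, against 449 to 479 in WT and 426 to 508 in Adar2KO. That of endothelial cells and pericytes was 38.7 to 85.8 CPM in Adar1-2KO, against 29.3 to 36.2 in WT and 19.9 to 31.2 in Adar2KO. For the other lists the ranges of Adar1-2KO and WT overlapped. The genes without a circle were the microglial Csf1r, Cx3cr1 and P2ry12, and Mog, Aqp4, Foxj1 and Ttr. In whole brain RNA, fewer cells of a type and less RNA per cell cannot be told apart.

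The back-splice junctions below show how the circles of 1 gene can share an edge, and which exons are joined in circles that the values below turn on. Each line gives the last 15 bases of the circle's last exon in lower case and the first 15 bases of its first exon in capitals, 5′ to 3′ on the gene's strand, so that the change of case is the back-splice. Coordinates are those of the files on GRCm39. The bases and exon numbers are from GENCODE vM21 transcripts, matched by host, by the distance between the outer exon edges and, where ONT gave them, by exon block lengths.

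Zfp827 exons 6 to 8, chr8:79844804-79863292, plus strand: gagtgtctgctccagCGGAAAGCTACAAGG
Zfp827 exons 2 to 4, chr8:79786879-79803167, plus strand: tcatgaagctgtcagATGTTAGTAGGCAGG
Zfp827 exons 2 to 5, chr8:79786879-79818695, plus strand: tcatgaaactctcagATGTTAGTAGGCAGG
Zfp827 exons 5 to 8, chr8:79818462-79863292, plus strand: gagtgtctgctccagCTGCAAACCAGAAGG
Zfp827 exons 2 to 8, chr8:79786879-79863292, plus strand: gagtgtctgctccagATGTTAGTAGGCAGG
Zfp292 exons 2 to 4, chr4:34839332-34839986, minus strand: tggataaagagaaagACACTTCTTGAATAT
Zfp652 exons 2 to 5, chr11:95639826-95644881, plus strand: tgaagacgcacactgACAAGATGCTCCAAG
Zfp30 exons 3 to 4, chr7:29487474-29488861, plus strand: gaaggtggagccgagAGTACGGTGATGTTC
Zfp426 exons 3 to 5, chr9:20384324-20387774, minus strand: agatagttttcccagGTCCTTCAGAGGACT

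The 5 Zfp827 circles use 3 acceptor exons (2, 5 and 6) and 3 donor exons (4, 5 and 8). The first bases of exon 2 therefore recur in 3 of the lines and the last bases of exon 8 in 3.

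Reads were concentrated on few Zfp hosts. Over the 9 Illumina libraries the 233 hosts held 361077 reads, of which the first 3 hosts took 49.2% and the first 15 took 83.2%. The median host had 49 reads (range 1 to 80115), 52 hosts had fewer than 10, and 70 hosts were listed in every library. Chromosome 18 carried 10 of the hosts and 36.7% of the reads, and chromosome 8 carried 19 hosts and 19.2%. Chromosome 7, with the most hosts (50), carried 12.5%.

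The 3 leading hosts were Zfp532, Zfp827 and Zfp536. Zfp532, a partner of NUTM1 in fusion genes of NUT carcinoma, had 12037, 7487 and 4572 reads in WT, 9588, 7436 and 9349 in Adar2KO, and in Adar1-2KO 11123, 6602 and 11921. In CPM that is 3457 ± 412, 3330 ± 293 and 3055 ± 176 (SD, n = 3 per genotype). The 3 genotypes overlapped. Zfp827, whose human counterpart recruits the NuRD complex to telomeres, was at 2705 ± 228, 2450 ± 279 and 2668 ± 595 CPM (SD, n = 3), also with overlap. Zfp536, a repressor of neuronal differentiation, was at 1567 ± 600, 1472 ± 667 and 1211 ± 209 CPM (SD, n = 3). Its spread in WT came from replicate 2, with 4790 reads in a library of 2207905. All CPM values here count reads at junctions, which do not grow with exon length, and sum over all circles of a host.

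**Figure D1:**
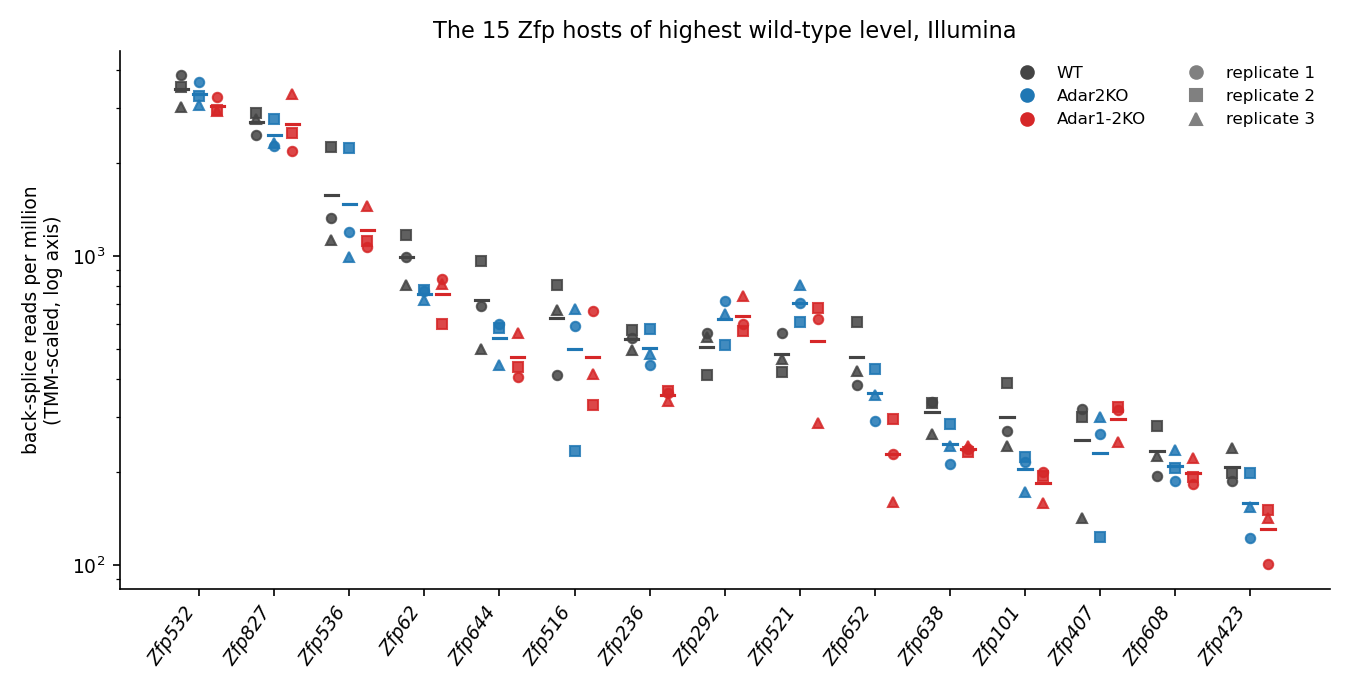
Back-splice level in CPM (log axis) of the 15 Zfp hosts with the highest WT mean, Illumina. Points are libraries, colours genotypes, symbols replicates and bars group means. Zfp532 and Zfp827 are the 2 highest in every library, and for Zfp236 the 3 Adar1-2KO points lie below the other 6.

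Below these came Zfp62 at 988 ± 180 CPM in WT, Zfp644 at 717 ± 235, Zfp516 at 627 ± 199, Zfp236 at 537 ± 40.0, Zfp292 at 507 ± 83.8, Zfp521 at 482 ± 74.1 and Zfp652 at 472 ± 121 (SD, n = 3). Of these, ZNF644 in human cells partners the histone methyltransferases G9a and GLP, Zfp516 is a transcription factor of brown fat, and Zfp521 is a partner of early B-cell factors that promotes neural fate. The last 5 of the first 15 were Zfp638 (312 ± 40.7), Zfp101 (301 ± 76.9), Zfp407 (254 ± 97.6), Zfp608 (234 ± 44.3), a paralog of Zfp609, and Zfp423 (208 ± 28.0 CPM, SD, n = 3), which is required for cerebellar development. By mean level in WT, 13 of these 15 were also among the first 15 on ONT. Zfp62 and Zfp608 were not, and Zfp438 and Zfp326 took their places.

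Zfp62 differed between the platforms. Its main circle, chr11:49103522-49106772, had 2527, 2117 and 1073 Illumina reads in WT, 1750, 1428 and 1920 in Adar2KO, and in Adar1-2KO 2488, 1201 and 2995, and no ONT read. The whole host had 11 ONT reads. The main circle of Zfp445, which with Zfp57 protects imprints, and that of Zfp426 had 2442 and 927 Illumina reads and likewise no ONT read. Unlike Zfp62, the Zfp445 host had 15 to 68 ONT reads a library, all on circles with other ends. Of the 369 Zfp circles with enough reads for a test, 202 had ONT reads at the same ends.

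In most leading hosts 1 circle carried the bulk of the reads. The shares were 90.1% for Zfp292 exons 2 to 4 (370 nt), 90.3% for Zfp652 exons 2 to 5 (1557 nt), 89.1% for Zfp521 exons 6 to 7 (248 nt) and 86.7% for Zfp516 exon 2 (1926 nt). Zfp532 exons 7 to 8 (445 nt) held 54.8%, and its other main circles were exons 5 to 8, exon 4 and exons 6 to 8 with 16.1%, 14.2% and 11.3%. Zfp827 was spread over several circles, with 29.9% for exons 6 to 8 (402 nt), 22.2% for exons 2 to 4 (1695 nt) and 21.5% for exons 2 to 5 (1929 nt). Zfp638, an RNA-binding nuclear protein, had 103 circles with 26.4% on the first of them, exons 5 to 8, and Zfp236 had 74 circles with 42.8% on exons 2 to 7. Zfp652 exons 2 to 5 is labelled intronic in the deposited tables, although its 4 ONT blocks have the lengths of these exons.

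The exons held by Zfp circles were set beside those of other hosts, as a description without a test. A GENCODE exon chain was found for 244 of 369 tested Zfp circles (66.1%) and for 81.4% of the circles of other hosts. Where a chain was found, 27.2% of Zfp circles held the annotated start codon (66 of 243), against 11.8% elsewhere. They began at exon 2 in 36.1% against 24.05%, and consisted of a single exon in 9.02% against 3.25%. The median Zfp circle had 3 exons and 768.5 nt of exon over a span of 6946 bases, and the median of the others 4 exons and 629 nt over 12004 bases. Where ONT blocks could be compared with the chain, 132 of 161 (82.0%) were the same.

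Whether a circle held zinc fingers followed the layout of the gene. A C2H2 pattern (both cysteines and both histidines at the usual spacing, 12 residues between the pairs) was searched in the coding sequences. A pattern of the KRAB domain was found in 124 of 229 hosts with a coding model. In 122 of the 123 KRAB-pattern hosts that had fingers, all of them lay in the last exon, against 40 of 101 hosts without the pattern. A GENCODE chain was found for 37.8% of the tested circles of KRAB-pattern hosts (34 of 90) and for 75.5% of those of the others (210 of 278), so most circles of KRAB-pattern hosts are not covered here. Of matched circles, 2 of 34 from KRAB-pattern hosts and 138 of 205 from the others held a finger. Matched circles of KRAB-pattern hosts thus mostly held none. This is largely set by the annotation, since a last exon has no 5′ splice site to back-splice from. It is therefore not a separate result about the circles. Zfp30 exons 3 to 4 (226 nt) held 0 of 12 fingers, whereas Zfp652 exons 2 to 5 held 7 of 9 and the start codon, and Zfp516 exon 2 held 8 of 10. The pattern misses some KRAB genes, Zfp445 among them, so the 124 are a lower count. These 124 hosts carried 8.45% of the Zfp reads, with a median of 37 reads a host against 63 for the other 105.

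As a share of all back-splice reads, Zfp hosts held 1.57% ± 0.147 in WT, 1.47% ± 0.0913 in Adar2KO and 1.36% ± 0.0314 in Adar1-2KO (SD, n = 3). The single libraries were at 1.55%, 1.73% and 1.44% in WT, 1.46%, 1.57% and 1.39% in Adar2KO, and in Adar1-2KO at 1.40%, 1.36% and 1.33%. WT and Adar1-2KO did not overlap, while Adar2KO overlapped WT. On ONT the shares were 1.21% ± 0.0160 in WT (n = 2), 1.29% ± 0.112 in Adar2KO and 1.003% ± 0.115 in Adar1-2KO (SD, n = 3). Again the Adar1-2KO libraries (1.05%, 1.09% and 0.872%) lay below both WT libraries. They carry the same replicate labels as on Illumina and are not taken as an independent repeat. Adar1-2KO replicate 2, the only library of its genotype known to come from flow cell 1 alone, was at 1.36%. The 3 WT libraries come from that flow cell too, and the part of the flow cell in these shares was not tested. These shares describe the chosen hosts together and carry no test. The KRAB-pattern hosts held 0.125% to 0.152% in WT, 0.115% to 0.128% in Adar2KO and 0.112% to 0.118% in Adar1-2KO.

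**Figure D2:**
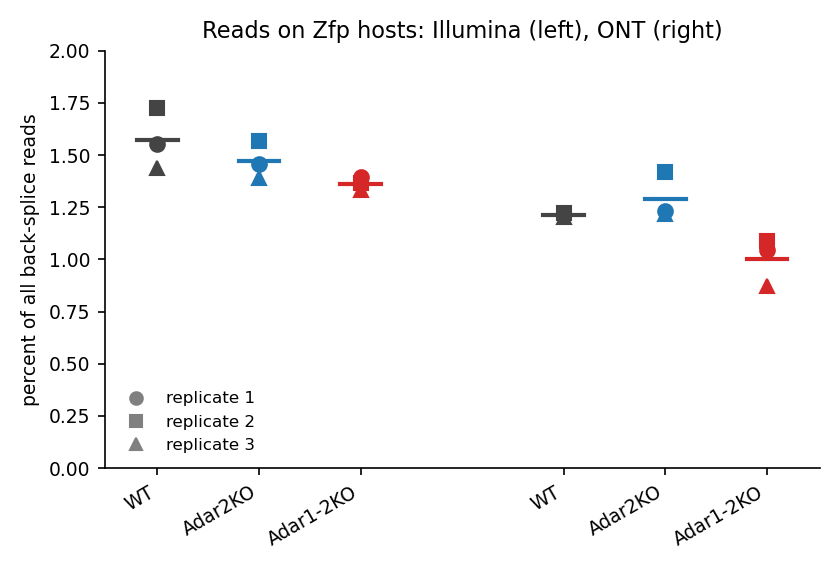
Percent of each library's back-splice reads that lay on Zfp hosts, Illumina on the left and ONT on the right, with points for libraries and bars for group means. The Adar1-2KO libraries lie below the WT libraries on both platforms (1.36% against 1.57% and 1.003% against 1.21% on average).

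The first comparison, Adar2KO against WT, asks what the loss of ADAR2, with the edited form of Gria2, changed. With 2 of the 3 Adar2KO libraries mainly on flow cell 2, it is largely split by flow cell as well, and the part of the flow cell was not tested. No Zfp host passed: 0 of 137 tested with edgeR at an adjusted p of 0.05, where 0.0696% of all 8626 hosts passed. At an unadjusted p under 0.05 there were 3 (2.19%, against 1.77% of all hosts), and DESeq2 called 0 (all hosts 0.243%). The median log2 fold change of the 137 was -0.10 and that of all hosts 0.01, with 61 higher and 76 lower in Adar2KO. Groups did not overlap for 6 hosts that were higher (4.38%, all hosts 5.95%) and 9 that were lower (6.57%, all hosts 5.73%). Of 369 circles of 114 hosts, 0 passed (all circles 0.0209%), 7 had an unadjusted p under 0.05 (1.90%, all circles 1.82%), and DESeq2 called 0 (all circles 0.131%).

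The largest non-overlapping differences of this comparison were in hosts of low level. Zfp109 had 100, 87 and 38 reads in WT and 216, 364 and 251 in Adar2KO, a log2 difference of 1.73 ± 0.80 (SE, edgeR adjusted p = 1). Its main circle was matched to exon 3 of 3. A last exon has no 5′ splice site, so this exon label is uncertain. The circle had 459, 544 and 228 reads in WT by CIRI2, the other caller, against 91, 80 and 31 by CIRIquant. With CIRI2 counts the host's difference was -0.74. Zfp984 had 73, 70 and 26 reads in WT and 12, 12 and 32 in Adar2KO (-1.84 ± 0.78). Zfp868, Zfp9, Zfp248 and Zfp606 were listed with 0 to 54 reads a library and log2 differences of 1.97, 1.37, -2.35 and -1.73, each with an edgeR adjusted p of 1. Zfp genes of a cluster are close copies of each other, so reads of Zfp984 or Zfp868 could be split among neighbours.

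**Figure D3:**
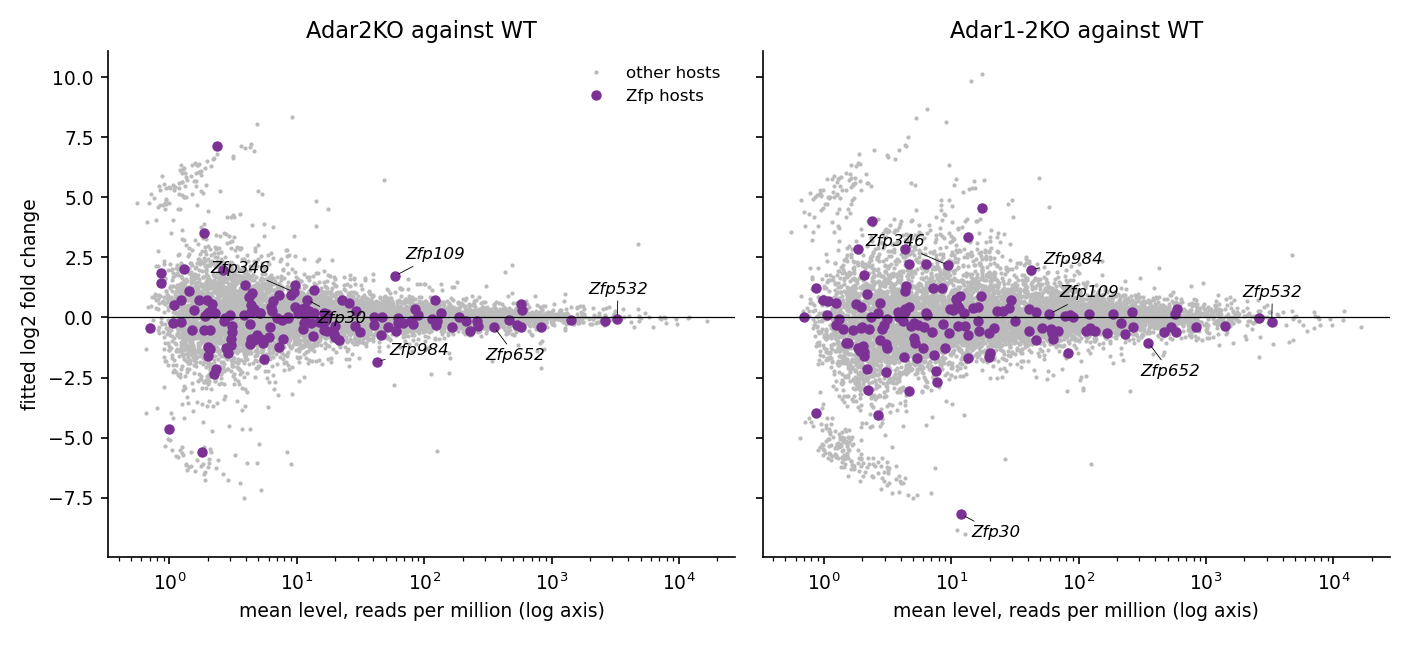
Fitted log2 fold change of each tested host against its mean level in CPM (log axis), Adar2KO against WT on the left and Adar1-2KO against WT on the right. Zfp hosts (purple) lie within the cloud of other hosts (grey), with Zfp30 at -8.20 in Adar1-2KO against WT.

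Adar1-2KO against WT asks what the loss of ADAR1 editing together with ADAR2, in mice that also lack Ifih1, changed. Again 0 of 137 hosts passed with edgeR (all hosts 0.0927%), and 12 had an unadjusted p under 0.05 (8.76%, all hosts 7.7%). DESeq2 called 3 hosts, Zfp30, Zfp236 and Zfp652, all lower in Adar1-2KO (1.45% of all hosts were called by DESeq2). The median log2 fold change of Zfp hosts was -0.30 and that of all hosts -0.07, with 58 higher and 79 lower. Groups did not overlap for 23 lower hosts (16.8%, all hosts 8.66%) and for 2 higher hosts (1.46%, all hosts 4.57%). These values include Adar1-2KO replicate 3, which listed 82 Zfp hosts, against 138 to 164 in the other Illumina libraries. Without it the median of all hosts was 0.01, and the Zfp median is not given here. The shares over all hosts were not matched for level. The part of this library and of the flow cell was not tested. Of the 369 circles, 0 passed with edgeR (all circles 0.0627%), 28 had an unadjusted p under 0.05 (7.59%, all circles 6.74%), and DESeq2 called 5 (all circles 0.901%). The same WT libraries serve in both comparisons. Scaling by mapped reads in place of TMM moves the median of all hosts from -0.07 to 0.31 in this comparison, so differences are relative to the back-splice reads of a library.

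Zfp30, a KRAB gene of chromosome 7, was the extreme case. Its host reads were 31, 19 and 33 in WT, 39, 36 and 112 in Adar2KO, and in Adar1-2KO 0, 0 and 0. All 6 libraries without the Adar1 change listed it and none of the 3 Adar1-2KO libraries did. These 3 hold 2181700 to 4308264 reads, but the deepest, replicate 3, listed only 82 Zfp hosts and 193 Zfp circles. Its depth therefore does not measure how well a host of low level is detected. Against a floor of 3 reads over the 3 libraries, Adar1-2KO was at least 39.5-fold lower than WT and at least 76.0-fold lower than Adar2KO. This floor pools the depth of all 3 libraries, replicate 3 included. The edgeR adjusted p was 0.0719 against WT and 0.0649 against Adar2KO, so neither passed at 0.05. Without Adar1-2KO replicate 3 both passed, at 0.0301 and 0.0218 (edgeR). Of 20 settings, 3 passed at 0.05 against WT and 3 against Adar2KO. The lowest adjusted p-values were 1.45e-05 against WT and 7.70e-07 against Adar2KO, both with DESeq2. The settings included a fit on flow cell 1 with a single library of each mutant, so that Adar1-2KO against Adar2KO set 1 library against 1. The fitted log2 difference from WT, -8.20 ± 1.36 (SE), depends on the prior count, since the group is at 0.

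The main Zfp30 circle, whose junction joins exons 4 and 3, had 25, 17 and 20 reads in WT, 36, 36 and 108 in Adar2KO and 0 in all 3 Adar1-2KO libraries. CIRI2 gave 27, 20 and 23 in WT, 36, 35 and 114 in Adar2KO and 0 in both Adar1-2KO libraries that have a CIRI2 table. On ONT the same circle had 0 and 0 reads in WT, 0, 2 and 0 in Adar2KO, and in Adar1-2KO 3, 2 and 3. Both Illumina callers thus listed no read of it in Adar1-2KO, and ONT listed a few there. The cause of this difference between platforms was not tested. In the authors' deposited table this circle had a log2 fold change of -5.29 in Adar1-2KO against WT and an adjusted p of 0.506.

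Zfp652, a corepressor partner, and Zfp236 were lower in Adar1-2KO at much higher counts, on both platforms. Zfp652 had 1202, 1297 and 640 reads in WT, 767, 976 and 1079 in Adar2KO, and in Adar1-2KO 778, 663 and 645, which is 472 ± 121, 359 ± 70.0 and 228 ± 69.0 CPM (SD, n = 3). The WT and Adar1-2KO values in CPM did not overlap. The log2 difference was -1.05 ± 0.27 (SE, edgeR adjusted p = 0.427), and on ONT -1.06 ± 0.40 (edgeR adjusted p = 0.381). Zfp236 had 1703, 1222 and 749 reads in WT, 1169, 1315 and 1474 in Adar2KO, and in Adar1-2KO 1227, 814 and 1367, which is 537 ± 40.0, 503 ± 70.4 and 354 ± 14.3 CPM (SD, n = 3). Its log2 difference from WT was -0.60 ± 0.18 (SE, edgeR adjusted p = 0.492) on Illumina and -0.76 ± 0.25 (edgeR adjusted p = 0.297) on ONT. Neither host passed with edgeR on either platform. The ONT libraries carry the same replicate labels as the Illumina ones, so the platforms are not taken as independent. On flow cell 1 there was 1 Adar1-2KO library (replicate 2), and Adar2KO replicate 3 alone for its genotype. The spread in that fit came from the WT libraries, and the mutants were assumed to vary like them. The differences of Adar1-2KO replicate 2 from WT there were -0.65 for Zfp652 and -0.54 for Zfp236. With library sizes from mapped reads, the differences of Adar1-2KO from WT were -0.64 and -0.22, beside a median of 0.31 over all hosts.

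**Figure D4:**
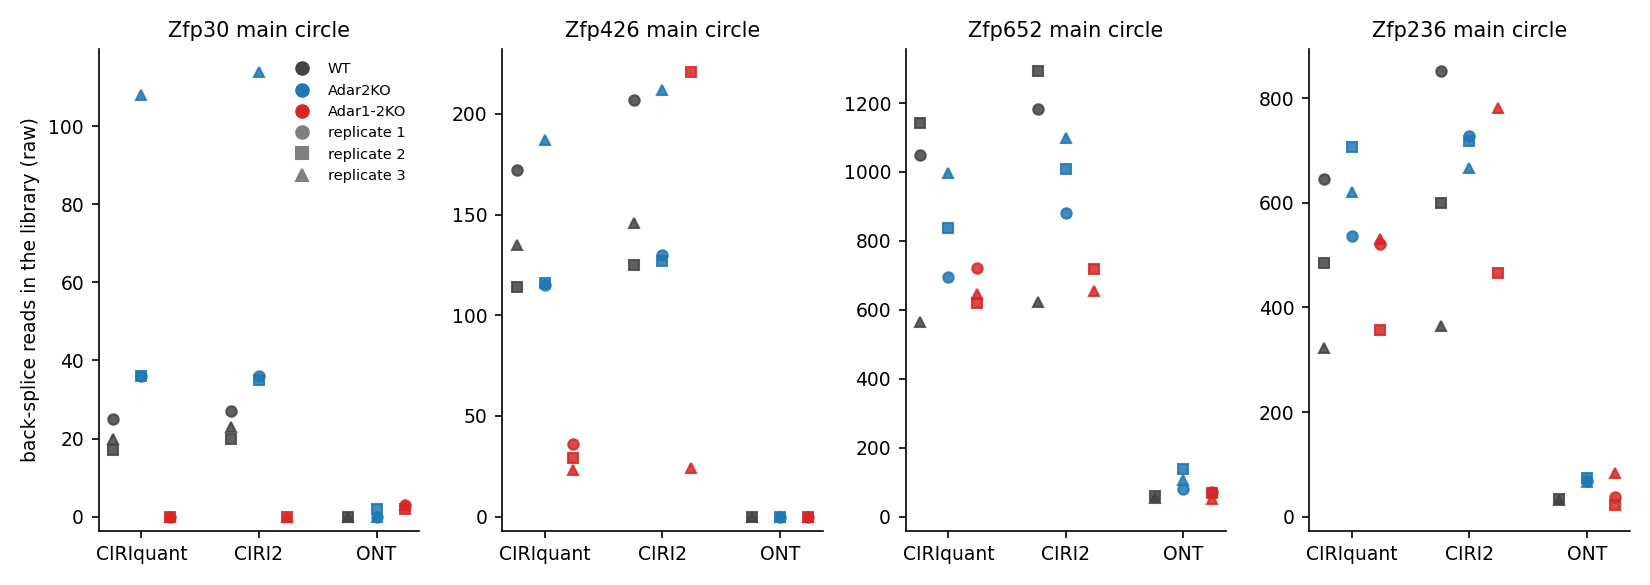
Raw back-splice reads of the main circles of Zfp30, Zfp426, Zfp652 and Zfp236 in each library, as counted by CIRIquant, by CIRI2 and on ONT (points are libraries, without error bars). Zfp30 is at 0 in Adar1-2KO by both Illumina callers, and Zfp426 in Adar1-2KO replicate 2 is at 29 by CIRIquant and 221 by CIRI2.

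Zfp426, a KRAB gene chosen here after its values were seen, held another of the circles called by DESeq2. Its main circle had 172, 114 and 135 reads in WT, 115, 116 and 187 in Adar2KO, and in Adar1-2KO 36, 29 and 23, a log2 difference from WT of -2.71 ± 0.60 (SE, edgeR adjusted p = 0.340). CIRI2 counted 221 reads in Adar1-2KO replicate 2, where CIRIquant had 29, and 24 in replicate 3, so the callers disagree on 1 of the libraries that carry the difference. Zfp462, a regulator of neural development also chosen after its values were seen, had a circle of exons 8 to 9 with 24, 8 and 5 reads in WT, 10, 15 and 17 in Adar2KO and 0 in all Adar1-2KO libraries. On ONT that circle had 3 reads in Adar2KO replicate 1 and 2 in Adar1-2KO replicate 1.

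The other hosts with the largest non-overlapping differences from WT were Zfp346, Zfp292, Zfp35 and Zfp568. Zfp346, a nuclear protein that binds double-stranded RNA, had 18, 3 and 6 reads in WT, 14, 18 and 31 in Adar2KO, and in Adar1-2KO 36, 24 and 119. Its log2 difference from WT was 2.17 ± 0.93 (SE, edgeR adjusted p = 0.626), or 1.49 without Adar1-2KO replicate 3, and ONT had 0 and 0 reads in WT, 0, 3 and 10 in Adar2KO, and in Adar1-2KO 7, 4 and 7. Zfp292, linked to neurodevelopmental disorders in humans, was at 507 ± 83.8 CPM in WT and 638 ± 89.9 in Adar1-2KO (SD, n = 3), a difference of 0.33 ± 0.20 on Illumina and -0.05 ± 0.33 on ONT (SE). Zfp35 had 17, 9 and 4 reads in WT and 2, 0 and 0 in Adar1-2KO. Zfp568, a KRAB repressor of a placental Igf2 transcript, had 14, 18 and 19 reads in WT, 21, 3 and 12 in Adar2KO, and in Adar1-2KO 7, 2 and 0.

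Adar1-2KO against Adar2KO sets the ADAR1 change and the lack of Ifih1 against the shared ADAR2 loss. With edgeR 0 of 137 hosts passed (all hosts 0.0464%), 9 had an unadjusted p under 0.05 (6.57%, all hosts 6.62%), and DESeq2 called 2 (all hosts 1.08%), Zfp30 lower and Zfp984 higher. The median was -0.14, with -0.10 over all hosts, and 54 hosts were higher and 83 lower. Non-overlap was seen for 14 lower hosts (10.2%, all hosts 7.96%) and 2 higher hosts (1.46%, all hosts 4.12%). Of 369 circles, 0 passed (all circles 0.0209%), 31 had an unadjusted p under 0.05 (8.40%, all circles 6.38%), and DESeq2 called 3 (all circles 0.781%). Both Adar1-2KO comparisons share the Adar1-2KO libraries, replicate 3 included. Without that replicate the median of all hosts against Adar2KO was -0.01.

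The Zfp984 difference rested largely on 1 library. Its reads were 12, 12 and 32 in Adar2KO, and in Adar1-2KO 137, 49 and 916, a log2 difference of 3.81 ± 0.83 (SE, edgeR adjusted p = 0.266), and 2.18 without Adar1-2KO replicate 3. In that replicate 735 reads lay on the circle chr4:147880115-147897989, which had 0 to 22 reads in the other 8 libraries. CIRI2 counted 488 and ONT 22 reads there, and ONT none in any other library. Zfp790, chosen after its values were seen, had 571 reads in Adar1-2KO replicate 3 and 0 to 9 elsewhere. Zfp786, a KRAB gene, had 5, 6 and 4 reads in Adar2KO and none in Adar1-2KO, at least 6.10-fold lower by the floor used for Zfp30.

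On ONT, 46 Zfp hosts and 86 circles of 36 hosts had enough reads. With edgeR 0 hosts passed in Adar2KO against WT (all hosts 0.0753%), in Adar1-2KO against WT (0.0377%) and in Adar1-2KO against Adar2KO (0.998%). Unadjusted p-values under 0.05 were 1, 6 and 7 (all hosts 5.86%, 10.1% and 12.9%), and DESeq2 called 0, 1 and 2 hosts (all hosts 0.527%, 2.09% and 6.25%). The DESeq2 calls were Zfp644 against WT and Zfp532 and Zfp536 against Adar2KO, all lower in Adar1-2KO. The median log2 fold changes of the 46 were 0.19, -0.10 and -0.25, beside 0.14, 0.14 and -0.02 over all hosts. Non-overlapping and lower were 5, 11 and 11 hosts (10.9%, 23.9% and 23.9%, all hosts 11.5%, 12% and 12.8%), and non-overlapping and higher were 8, 6 and 2 (17.4%, 13.0% and 4.35%, all hosts 19.4%, 14.7% and 9.87%). Of the 86 circles 0 passed in each comparison (all circles 0.00965%, 0% and 0.492%), with 2, 7 and 9 at an unadjusted p under 0.05 (all circles 4.28%, 7.49% and 10.6%) and 0, 0 and 2 called by DESeq2 (all circles 0.164%, 0.801% and 3.64%). Zfp644 on ONT had 141 and 138 reads in WT, 204, 192 and 236 in Adar2KO, and in Adar1-2KO 165, 136 and 155, with a log2 difference between Adar1-2KO and WT of -1.03 ± 0.28 (SE, edgeR adjusted p = 0.212).

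Some circles took a share of their host's reads in Adar1-2KO replicate 3 that lay outside the range of the other 8 libraries, and others did not. Inside that range were the main circles of Zfp532 (50.1%), Zfp536 (57.9%), Zfp236 (38.8%) and Zfp521 (79.7%). Zfp827 exons 6 to 8 took 19.1% to 31.0% of the host's reads in those 8 and 45.7% in that replicate, while exons 2 to 5 took 21.2% to 28.4% and 9.96%. Exons 2 to 4, which share the exon 2 edge, were at 20.6% there, just below the 20.7% to 25.1% of the other 8. In Zfp532 exons 6 to 8 took 8.21% to 10.3% and 21.2%, and exon 4 took 11.7% to 21.2% and 7.69%. Zfp644 exons 3 to 5 took 11.7% to 19.97% and 0.613%, and Zfp638 exons 5 to 8 took 17.7% to 25.8% and 48.0%. On ONT, where libraries were made by ligation from the amplified cDNA, Zfp827 exons 6 to 8 took 29.4%, against 7.68% to 16.8% in the other 7 libraries, and exons 2 to 5 took 8.72%, against 23.97% to 31.1%. For these circles the Adar1-2KO mean joins libraries of unlike composition.

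**Figure D5:**
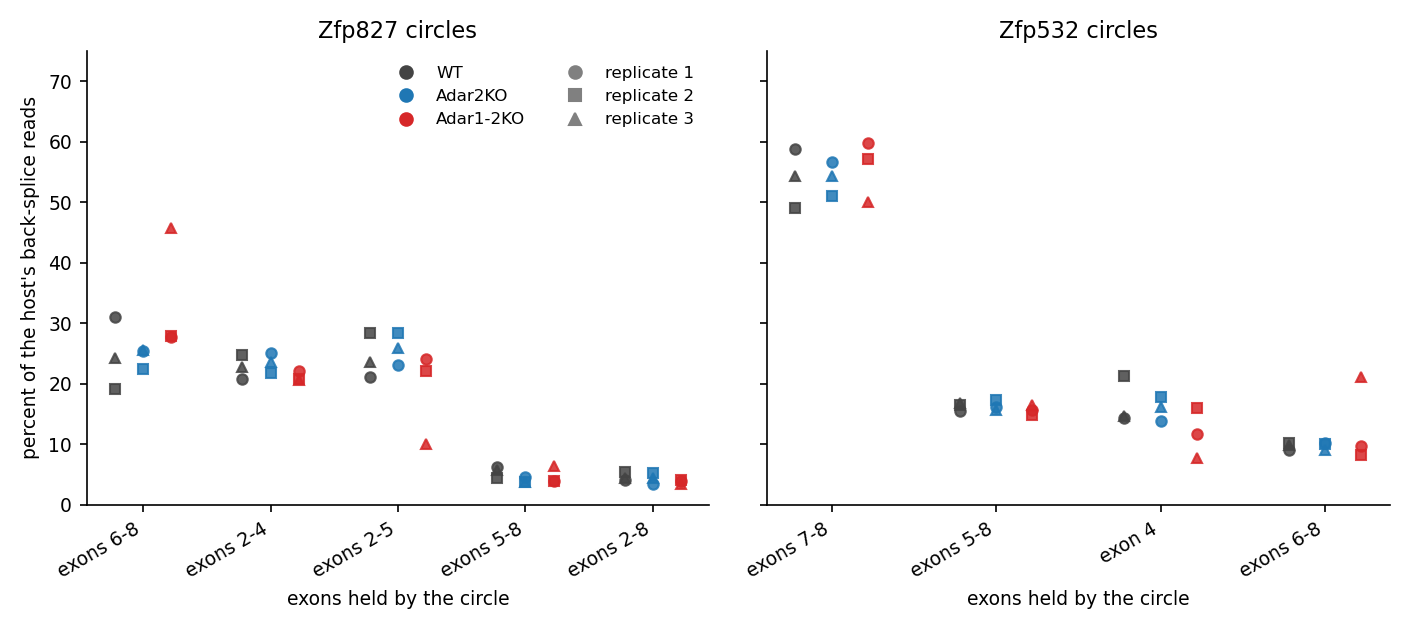
Percent of the host's back-splice reads on each main circle of Zfp827 (left) and Zfp532 (right), with points for the 9 Illumina libraries. Adar1-2KO replicate 3 lies apart at 45.7% and 9.96% in Zfp827 and at 21.2% in Zfp532.

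The circular share compares the back-splice reads of a circle with the forward-splice reads at its ends, on the log2 scale. It gave the only Zfp calls of the main edgeR and limma fits. Of 90 Zfp circles of 44 hosts, 1 passed with limma in Adar2KO against WT (all circles 0.0787%), 0 in Adar1-2KO against WT (0.0944%; DESeq2 does not apply to shares) and 1 in Adar1-2KO against Adar2KO (0.189%). Unadjusted limma p-values under 0.05 were found for 2, 3 and 3 of the 90 (all circles 2.93%, 4.82% and 5.12%). Both calls were the Zfp644 circle chr5:106765937-106786501, whose share rose by 7.10 ± 0.83 (SE, limma adjusted p = 0.0462) in Adar2KO and fell by 8.03 ± 0.83 (SE, limma adjusted p = 0.0111) from Adar2KO to Adar1-2KO. Back-splice reads were 360, 271 and 136 in WT, 159, 191 and 169 in Adar2KO, and in Adar1-2KO 177, 129 and 328, and forward-splice reads 107, 133 and 58, then 0, 0 and 0, then 104, 51 and 602. The call thus rests on 3 forward-splice counts of 0. CIRI2 counted 245, 230 and 315 non-junction reads at this circle in the same Adar2KO libraries, and its circular percentage was 58.5%, 63.1% and 52.8% there, against 61.0% to 64.7% in WT. The rise in Adar2KO was lost when any WT library, any Adar2KO library or Adar1-2KO replicate 2 was left out (limma adjusted p 0.0515 to 0.206), and the fall without Adar2KO replicate 1 (0.0555). Forward-splice counts of 0 in 1 to 8 libraries were found for 56.7% of the Zfp circles tested and for 57.2% of all circles tested.

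By role, edgeR and DESeq2 called 0 genes of the 5 Zfp lists in each Illumina comparison (all hosts 0.0696%, 0.0927% and 0.0464% by edgeR, and 0.243%, 1.45% and 1.08% by DESeq2). At an unadjusted edgeR p under 0.05 there was 1 gene each in the lists of neural development, RNA binding and promoters, all in Adar1-2KO against WT (all hosts 7.7%). Of 9 genes of neural development 7 were tested, with median log2 fold changes of 0.30 in Adar2KO and 0.13 in Adar1-2KO against WT, beside 0.01 and -0.07 over all hosts. Zfp521 in this list was at 482 ± 74.1, 705 ± 97.1 and 530 ± 211 CPM (SD, n = 3), a difference of 0.55 ± 0.28 in Adar2KO (SE, edgeR adjusted p = 1). Of 8 genes that bind or process RNA 5 were tested, with medians of -0.34 and -0.40. They included Zfp326, a part of the DBIRD complex of splicing, at 79.2 ± 12.8, 72.2 ± 15.6 and 83.5 ± 18.3 CPM, and Zfp207, a spindle protein, at 75.6 ± 16.2, 51.7 ± 19.0 and 54.5 ± 31.3 CPM (SD, n = 3). Of 10 genes of promoters and chromatin architecture 7 were tested, with medians of -0.08 and -0.13, among them the SUMO ligase Zfp451 at 131 ± 15.3, 124 ± 6.56 and 89.5 ± 12.3 CPM (SD, n = 3). Of 11 genes of imprinting and retroelement silencing 5 were tested, with medians of 0.17 and 0.08. There Zfp445 had 469, 29 and 191 reads in WT, 475, 299 and 494 in Adar2KO, and in Adar1-2KO 647, 139 and 283, and Zfp809, which silences murine leukaemia virus in embryonic stem cells, had 0 to 26 reads a library. Of 4 oligodendrocyte genes 2 were tested, Zfp536 and Zfp24, with medians of -0.31 and -0.83. Zfp24, needed for myelination, had at most 17 reads a library.

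Partners of these proteins and zinc finger genes with other names were counted alongside on Illumina, where the shares over all hosts just given apply, with 1.77%, 7.7% and 6.62% at an unadjusted edgeR p under 0.05. Of 20 genes of KRAB corepressor and silencing complexes 17 were tested and 0 passed with edgeR in any comparison (0, 2 and 2 at an unadjusted p under 0.05), while DESeq2 called Pphln1, a subunit of the HUSH complex, in Adar1-2KO against WT. Of 18 BTB zinc finger genes 14 were tested, and 1, Zbtb20, a factor of hippocampal and astrocyte development, rose in Adar1-2KO. It was at 590 ± 33.7 CPM in WT, 676 ± 119 in Adar2KO and 1575 ± 96.3 in Adar1-2KO (SD, n = 3), a log2 difference of 1.42 ± 0.18 from WT (SE, edgeR adjusted p = 0.00393) and 1.22 ± 0.18 from Adar2KO (SE, edgeR adjusted p = 0.0266). Of 8 tested SCAN and KRAB genes with other names 0 passed with edgeR (0, 0 and 1 at an unadjusted p under 0.05) and DESeq2 called 0. Of 45 tested genes of other zinc finger families 0 passed with edgeR (1, 6 and 2 at an unadjusted p under 0.05), and DESeq2 called 0, 3 and 1.

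Reads at 0 and disagreements between callers touched named circles. Of 81 Zfp circles with at least 500 reads, 10 were at 0 in 1 or more libraries. The main circle of Zfp407, exons 5 to 8, was at 0 in WT replicate 3 and Adar2KO replicate 2, by CIRIquant and CIRI2, while the other 7 libraries had 402 to 748 reads and ONT listed 51 and 73 reads in the same 2 replicates. Of 1231 values of at least 20 reads by either caller, 155 (12.6%) differed 2-fold or more between CIRIquant and CIRI2, against 19.0% over all circles. Zfp516 exon 2 in Adar2KO replicate 2 was at 319 by CIRIquant and 1725 by CIRI2, while its other Adar2KO values (1303 and 1788 against 1304 and 1796) were alike. In the authors' deposited tables, 5 of 772 circles for Adar2KO and 1260 of 160909 for Adar1-2KO were Zfp circles. Of these, 0 had an adjusted p under 0.05 (DESeq2), against 5.96% of all circles listed for Adar2KO and 0.0336% for Adar1-2KO. The Adar2KO table lists only circles with an unadjusted p under 0.05, so the tables are not alike in what they list.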

How the data were processed

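The submitters' processing notes name bcl2fastq, BWA 0.7.17 and the build GRCm39. Per the file headers, CIRIquant 1.1.2 made the Illumina tables. These deposited tables hold counts of back-splice and forward-splice reads, a junction ratio (fraction) and a CPM per circle. In the 3 Adar1-2KO tables values stand 1 column right of their headers, which was corrected. The deposited CIRI2 and ONT tables hold counts from 2 reads upward. The authors' DESeq2 2.11.40.8 tables give a base mean (normalized signal), a log2 fold change, a Wald score and p-values.

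Host counts sum back-splice reads over all circles of a host. A circle naming several genes went to 1 gene where all its other names were of predicted, pseudo or small RNA genes. Otherwise its joint name was kept as a host of its own. Using only circles naming 1 gene was an alternative. All features of a platform that reached 5 reads in 3 or more libraries entered 1 fit in edgeR 4.0.16 (R 4.3.3, TMM), with its quasi-likelihood test, two-sided, and Benjamini-Hochberg adjustment. The circular share used limma 3.58.1 with a pseudocount of 0.5 and at least 20 reads in every library. Alternatives were DESeq2 1.42.0, other scalings, filters and thresholds, CIRI2 counts, flow cell 1 libraries, a replicate block, other name rules and leaving out each library. Fits were tested on simulated data: in Adar2KO against WT over 8626 Illumina hosts, 24% of 4-fold and 48% of 16-fold changes were called, and over 38297 circles 0% and 12%.

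Named hosts were the 15 of highest WT level, any that passed, the 3 largest non-overlapping differences each way per Illumina comparison, and up to 4 per role list. Members, lists and this rule were chosen with earlier results of these data known. WT ONT replicate 1 and a CIRI2 table of Adar1-2KO replicate 1 were not used here. The labels name no strand-marking step, so circles of overlapping or antisense genes are uncertain, as are those of near-identical Zfp copies.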

Additional observations from a re-analysis of the deposited data

How the results depend on the processing

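For Adar1-2KO against WT on Illumina, the 0 Zfp hosts called became 1 (Zfp30) at a threshold of 0.1, 3 with DESeq2, 3 without a filter and 0 to 1 when single libraries were left out (1 without Adar1-2KO replicate 3). Over all hosts, 4 were called higher and 9 lower of 8626 at 0.1, and DESeq2 called 1.45%. Without a filter 111 were higher and 70 lower of 15877, and without Adar1-2KO replicate 3, 8 and 12 of 8554. Among the Zfp calls without a filter was Zfp790, whose reads lay mainly in Adar1-2KO replicate 3. Against Adar2KO the Zfp hosts called became 1, 2, 4 and 0 to 1 under the same settings. Over all hosts, 4 were then higher and 6 lower of 8626 at 0.1, and DESeq2 called 1.08%. Without a filter these were 101 and 49 of 15877, and without Adar1-2KO replicate 3, 4 and 9 of 8554. The 0 Illumina Zfp circles became 1 without a filter in Adar2KO against WT, 5 with DESeq2 and 2 without a filter in Adar1-2KO against WT, and 3 and 4 against Adar2KO. Of all 208914 circles without a filter, 50 were higher and 45 lower in Adar2KO against WT. In Adar1-2KO they were 302 and 132 against WT, and 265 and 107 against Adar2KO. DESeq2 called 0.901% and 0.781% of all circles in these Adar1-2KO comparisons. On ONT, Zfp hosts became 1 with DESeq2 against WT, and 2 with DESeq2, 1 without a filter and 0 to 1 on leaving out a library (Zfp236, edgeR adjusted p = 0.0379 without Adar1-2KO replicate 3) against Adar2KO, and circles 2 with DESeq2. DESeq2 called 2.09% and 6.25% of all ONT hosts there, and 3.64% of all ONT circles against Adar2KO. Against Adar2KO, 74 of all 13882 ONT hosts were higher and 102 lower without a filter. Without Adar1-2KO replicate 3 they were 96 and 78 of 4963. The circular share call in Adar2KO against WT became 0 with a pseudocount of 1, where 3 of all 6353 circles were higher and 0 lower. Over left-out libraries the Zfp calls of both comparisons with Adar2KO ranged from 0 to 1. The other 286 alternatives of counts and shares kept their side. Zfp109 reversed with CIRI2 counts (-0.74). The cause was not tested.

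With the replicate number as a block, both circular share calls became 0, and 0 of all 6353 circles were called either. No other Zfp count was moved. The correlations of same-numbered libraries were -0.0523 to 0.0454, so the numbers do not pair the samples. In the simulation 48% of 16-fold host changes were called. Depth was not varied.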
